A study of Mus musculus with 6 samples.

Results

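The glycolysis and hypoxia response genes are 35 genes chosen by name: 3 glucose and lactate transporters, 18 glycolytic enzymes, 4 genes of the hypoxia-inducible factors (HIFs) and their prolyl hydroxylases, and 10 HIF targets. They occupy 36 of the 27202 rows of the deposited table, because *Aldoa* is listed under 2 identifiers. RNA was sequenced from whole colon of 3 *Nedd4l* fl/fl *Villin* Cre mice (cKO) and 3 *Nedd4l* fl/fl littermates (WT), to ask how the colitic colon differs without epithelial *Nedd4l*. Both genotypes carried the floxed *Nedd4l* alleles on a C57BL/6J background, were 8 to 10 weeks old, and drank 2% DSS (dextran sulfate sodium, which damages the lining of the colon) for 7 days. The *Villin* promoter drives Cre in intestinal epithelial cells (IECs), so other cells of the tissue keep *Nedd4l*. No untreated mice were analysed here, so each comparison is between inflamed colons. In bulk tissue, fewer cells of a type and less RNA per cell cannot be told apart.

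Glycolysis converts glucose to pyruvate and, through lactate dehydrogenase, to lactate, which the cell exports. When oxygen is plentiful, prolyl hydroxylases mark the HIF alpha subunits for degradation, and when oxygen falls the subunits persist and switch on glycolytic genes, *Vegfa*, *Car9* and mitophagy receptors. The colonic epithelium is known for low oxygen at its surface even in health, and neutrophils, which enter the colon in DSS colitis, rely on glycolysis and consume oxygen.

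*Nedd4l*, the deleted ubiquitin ligase gene, had normalized counts of 476, 942 and 566 in cKO replicates 1, 2 and 3 and of 1241, 1271 and 1266 in the WT replicates. All cKO libraries were below all WT libraries, with cKO replicate 2 nearest to them (log2 fold change −0.99, SE 0.24, limma adjusted p = 0.225, and 0.013 without cKO replicate 2). Replicates 1 and 2 of cKO stood apart. Over the 16246 genes tested, cKO replicate 2 correlated more closely with the WT libraries (mean r = 0.977) than with its own genotype (0.966), and cKO replicate 1 was the least like WT (0.948). The 13 colonic epithelium markers were all detected in every library and summed to 242050, 277429 and 261856 in cKO and to 260693 to 281815 in WT. Their log2 fold change was below 0 for 10 of 13, and *Epcam*, which was not among the 10, was between 20973 and 24439. Between 14914367 and 17547270 multiples of the smallest value, which are reads if that value is 1 read, stood behind each library.

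No glycolysis or hypoxia gene passed limma's test at an adjusted p under 0.05, and neither did any other gene: 0 of 36 rows against 0 of 16246 (0%), with a smallest adjusted p of 0.257 among the 36 and 0.111 among all genes. At an unadjusted p under 0.05, 6 of the 36 were higher in cKO (*Ddit4*, *Bnip3*, *Bnip3l*, *Adm*, *Pfkp* and *Pkm*) and 1 was lower (*Hk1*). The background was 6.91% of all genes higher and 7.08% lower, 14.0% in all, against 19.4% of the 36. The 3 cKO libraries lay wholly above the 3 WT libraries for *Ddit4*, *Bnip3l*, *Adm* and *Tpi1* and wholly below for *Hk1*, which is 13.9% of the 36 against 21.4% of all genes. The log2 fold change was above 0 for 23 of the 36 rows, or 63.9% against 50.2% of all genes, with a median of 0.08 against 0.0013.

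The lean upward was largest in 1 library. The highest of the 6 values was that of cKO replicate 1 in 20 of the 36 rows, or 55.6% against 24.4% of all genes. Without cKO replicate 1 the median fell to 0.0071, 2 rows, *Ddit4* and *Bnip3*, were higher at an unadjusted p under 0.05 (background 5.27%) and 0 were lower (6.35%). Without cKO replicate 2 the median was 0.15, and 11 rows were higher (background 8.94%) and 0 lower (8.77%). These 11 added *Slc16a3*, *Slc2a3*, *Pfkfb3*, *Tpi1* and *Eno1* to the 6 genes found in all libraries. The genotypes then did not overlap for 36.1% of the rows against 37.6% of all genes, and without cKO replicate 1 for 25.0% against 30.8%. Leaving out any of the other 4 libraries left 1 to 3 rows higher, where the share over all genes was not counted.

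**Figure D1:**
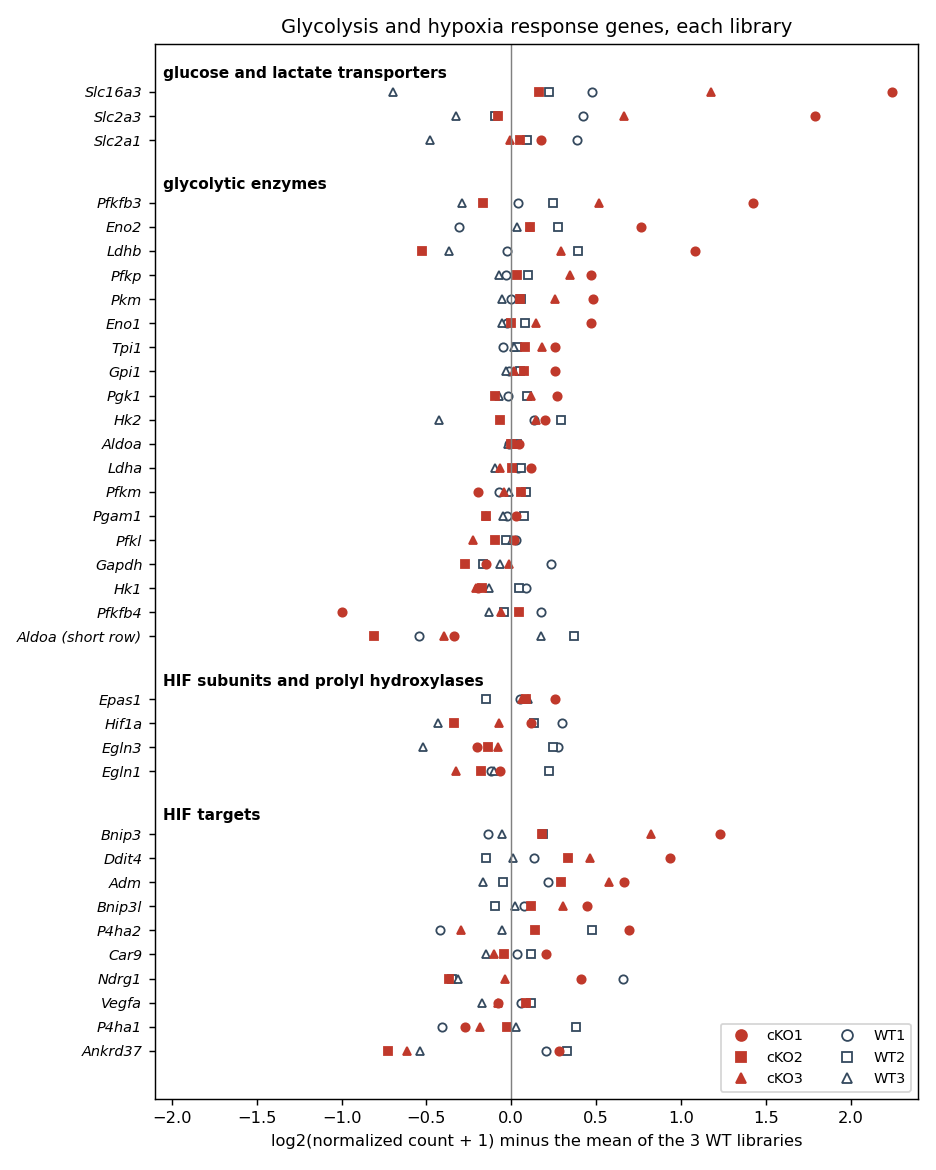
Each point is 1 library: the horizontal axis gives log2(normalized count + 1) minus the mean of the 3 WT libraries, with filled red symbols for cKO and open symbols for WT. The filled circle, cKO replicate 1, is the rightmost point in 20 of the 36 rows, and the spread is widest for *Slc16a3*, *Slc2a3*, *Pfkfb3*, *Bnip3* and *Ldhb*.

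Among the transporters, *Slc16a3* and *Slc2a3* had the largest fold changes of the 36 rows, with wide spread between mice. *Slc16a3*, the lactate exporter of strongly glycolytic cells (chr11:120948480-120960868 of GRCm38, plus strand), was at 1186, 280 and 567 normalized counts in the cKO replicates and at 348, 291 and 154 in the WT replicates. Replicates 1 and 3 of cKO were above every WT library, and replicate 2 was within the WT range. The log2 fold change was 1.19 (SE 0.59, limma adjusted p = 0.418), 0.67 without cKO replicate 1 and 1.71 without cKO replicate 2.

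*Slc2a3*, a high-affinity glucose transporter of neurons and leukocytes, had the same order within each genotype at a far lower level, with 173, 46.4 and 78.4 in cKO and 66.2, 45.9 and 38.9 in WT. Its log2 fold change was 0.79 (SE 0.47, limma adjusted p = 0.466), and 0.29 without cKO replicate 1. *Slc2a1*, the glucose transporter of most tissues, was at 2966, 2730 and 2612 in cKO and 3435, 2805 and 1888 in WT. The cKO values of *Slc2a1* lay inside the WT range, and the 95% interval of its log2 difference ran from −0.43 to 0.57. Per 1000 bases of exon, *Slc2a1* was the leading transporter in WT at 773 ± 222 (SD, n = 3), above *Slc16a3* at 49.7 ± 18.8 and *Slc2a3* at 6.95 ± 1.95.

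Hexokinases commit glucose to the cell by phosphorylation, and the genotypes overlapped for 1 of the 2 genes read here. *Hk1* (chr10:62268855-62379908, minus strand) was at 4293, 4360 and 4255 in cKO and 5229, 5070 and 4480 in WT, so that the cKO libraries were closely grouped and all below WT. Its log2 fold change was −0.19 (SE 0.08, unadjusted p = 0.048, limma adjusted p = 0.354). *Hk2*, the hexokinase that HIF induces, was at 9506, 7916 and 9160 in cKO and 9112, 10137 and 6163 in WT, which overlapped. The log2 ratio of *Hk2* to *Hk1* averaged 1.04 ± 0.15 (SD, n = 3) in cKO and 0.75 ± 0.27 in WT (exact permutation test, two-sided p = 0.2, 0.6 after adjustment over 8 ratios).

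Phosphofructokinase catalyses the step that most controls the pathway, and the genotypes overlapped for each of its 3 subunits. *Pfkp*, the platelet-type subunit (chr13:6579768-6648777, minus strand), was at 5839, 4322 and 5347 in cKO and 4127, 4520 and 4012 in WT. Replicates 1 and 3 of cKO were above all WT libraries and replicate 2 was not, and the log2 fold change was 0.28 (SE 0.12, unadjusted p = 0.044, limma adjusted p = 0.348). *Pfkl*, the liver-type subunit, was at 2514 to 2969 in cKO and 2871 to 2999 in WT, and *Pfkm*, the muscle-type subunit, at 119 to 142 and 129 to 145.

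The log2 ratio of *Pfkp* to *Pfkl* was 0.98, 0.65 and 1.09 in cKO and 0.46, 0.65 and 0.45 in WT. The difference of 0.38 had an exact permutation p of 0.2, and 0.6 adjusted over the 8 ratios, where 3 against 3 libraries cannot go below 0.10. *Pfkfb3*, which makes the allosteric activator of phosphofructokinase, was at 1165, 386 and 622 in cKO and 446, 515 and 354 in WT. It had the order of *Slc16a3* among the cKO libraries, with a log2 fold change of 0.59 (SE 0.41, limma adjusted p = 0.537) that shrank to 0.18 without cKO replicate 1. *Pfkfb4*, its paralog, went the other way in that library, with 391, 807 and 751 in cKO against 883, 760 and 714 in WT.

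Of the enzymes that follow, those for pyruvate kinase and triosephosphate isomerase had the smallest p. *Pkm*, which makes pyruvate (chr9:59656368-59679375, plus strand), was at 23745, 17681 and 20407 in cKO and 17014, 17692 and 16420 in WT, with cKO replicate 2 at the level of the highest WT library. Its log2 fold change was 0.26 (SE 0.11, unadjusted p = 0.048, limma adjusted p = 0.355). *Tpi1*, which interconverts the triose phosphates (chr6:124810586-124814296, minus strand), was at 10498, 9301 and 9950 in cKO and 8512, 8997 and 8877 in WT. All cKO libraries were above all WT libraries for *Tpi1*, by a log2 fold change of 0.17 (SE 0.08, unadjusted p = 0.060, limma adjusted p = 0.369).

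*Ldha*, which turns pyruvate into lactate and is a standard HIF target, was at 22088, 20401 and 19489 in cKO and 20979, 21183 and 19030 in WT. These values overlapped throughout, and the 95% interval of the log2 difference was −0.18 to 0.22. *Ldhb*, the isozyme of oxidative tissues, was scarce, at 27.6 to 86.3 in cKO and 31.0 to 53.1 in WT. The main row of *Aldoa*, the aldolase gene, varied little, at 14780 to 15281 in cKO and 14654 to 15156 in WT, and its short second row held 12.2 to 28.8.

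The other enzymes overlapped between the genotypes. *Eno1*, the main enolase, was at 11228 to 15548 in cKO and 10823 to 11869 in WT, and *Eno2*, the neuronal enolase, at 46.4 to 73.8 and 34.6 to 52.2. *Gpi1* (glucose phosphate isomerase) was at 7138 to 8438 and 6897 to 7302, *Pgk1* (phosphoglycerate kinase) at 8990 to 11547 and 9117 to 10206, and *Pgam1* (phosphoglycerate mutase) at 2761 to 3130 and 2970 to 3225. Their log2 fold changes were 0.20 for *Eno1*, 0.33 for *Eno2*, 0.12 for *Gpi1*, 0.10 for *Pgk1* and −0.09 for *Pgam1*, each with an unadjusted p above 0.05.

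*Gapdh*, often used as a reference gene, was listed at only 300 to 360 in cKO and 323 to 427 in WT. The GENCODE annotation holds 71 other genes with at least 95% identity to at least 50% of its transcript, and the 57 of them in the table summed to 562 to 719 normalized counts in a library. How the authors treated reads that match several genes is not stated, so the level of *Gapdh* here is uncertain. *Eno1*, *Ldha*, *Pgk1*, *Ldhb* and *Pkm* had 1 to 3 such copies each. Those of *Eno1* summed to at most 382 and that of *Pkm* was at most 197.

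Per 1000 bases of exon, the WT order of the enzymes was led by *Ldha* at 6162 ± 359 (SD, n = 3), *Aldoa* at 5092 ± 98.9, *Pgk1* at 4278 ± 248, *Pkm* at 3408 ± 127 and *Tpi1* at 3195 ± 91.8. *Hk2* at 1419 ± 346 and *Pgam1* at 1676 ± 75.0 did not differ beyond their spread. *Hk2* exceeded *Hk1* at 577 ± 46.2, and *Pfkl* at 440 ± 9.63 exceeded *Pfkm* at 40.8 ± 2.35. *Pfkl* was also above *Pfkp* at 315 ± 19.9 on this measure, but not by normalized count (WT means 2937 for *Pfkl* and 4220 for *Pfkp*). In cKO the *Pfkp* level was 386 ± 57.8 and the *Pfkl* level 411 ± 34.1. The test of the *Pfkp* to *Pfkl* ratio between the genotypes, given above, did not pass (exact permutation p = 0.2, 0.6 adjusted). The length is that of all exons of a gene together, so genes with rarely used exons are understated. It was 13401 bases for *Pfkp*, whose longest annotated coding transcript has 4145, and 6675 for *Pfkl*, with 3730. For *Pkm* it was 5001 against 2432, and for *Pgk1* 2244 against 1825. The order of *Pfkp* and *Pfkl*, and that of the enzymes after *Ldha* and *Aldoa*, therefore depends on the length used.

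**Figure D2:**
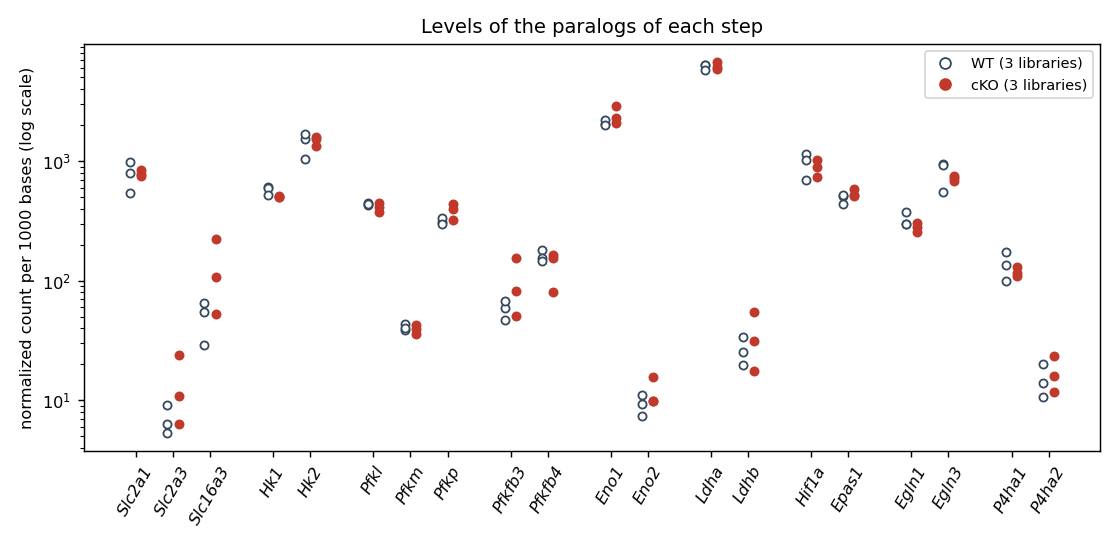
Points are single libraries (open, WT; filled, cKO) and the vertical axis, on a log scale, gives normalized counts per 1000 bases of exon for genes that share a role. *Ldha* is far above *Ldhb*, *Eno1* far above *Eno2*, and the filled points of *Slc16a3*, *Slc2a3* and *Pfkfb3* spread widest.

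The HIF subunits and hydroxylases overlapped between the genotypes. *Hif1a* was at 5968, 4372 and 5252 in cKO and 6789, 6053 and 4084 in WT (95% interval of the log2 difference −0.59 to 0.40). *Epas1*, the HIF alpha subunit known for iron and vascular targets, was at 2714 to 3102 in cKO and 2348 to 2779 in WT. *Egln3*, a hydroxylase that HIF itself induces, was at 1826, 1908 and 1990 in cKO and 2542, 2493 and 1461 in WT, so that cKO fell inside a broad WT range. *Egln1*, the main oxygen sensor of the family, was at 921 to 1101 and 1064 to 1344. Since HIF is controlled through protein stability, transcript levels of these genes do not measure its activity.

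Of the 10 HIF targets, 4 were higher and 0 lower at an unadjusted p under 0.05, or 40.0% against 6.91% of all genes higher. Without cKO replicate 1 this was 2 of 10 (20.0% against 5.27%), and the median log2 fold change of the 10 went from 0.10 to −0.034. The members were chosen with earlier results of these data known, so the share is a description and not a test. It also depends on the grouping: *Ldha*, *Hk2* and *Egln3*, which HIF also induces, were counted under other roles. None of them had an unadjusted p under 0.05. *Ddit4*, a stress-induced inhibitor of mTORC1 (chr10:59949669-59951834, minus strand), was at 2043, 1345 and 1476 in cKO and 1174, 964 and 1078 in WT. All cKO libraries were above all WT libraries. The means of 1621 ± 371 and 1072 ± 105 (SD, n = 3) differed 1.51-fold, with a log2 fold change of 0.58 (SE 0.16, unadjusted p = 0.0076, limma adjusted p = 0.257), which had the smallest p of the 36 rows.

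*Bnip3*, a receptor for the removal of mitochondria (chr7:138890836-138909519, minus strand), was at 375, 181 and 283 in cKO and 145, 182 and 154 in WT. Replicate 2 of cKO was at the level of the highest WT library and the other 2 were well above it. The log2 fold change was 0.74 (SE 0.26, unadjusted p = 0.021, limma adjusted p = 0.307), and 0.50 without cKO replicate 1. *Bnip3l*, its paralog, which also clears mitochondria from maturing red cells (chr14:66985239-67008877, minus strand), was at 1477, 1176 and 1340 in cKO and 1141, 1015 and 1098 in WT. There the genotypes did not overlap, and the log2 fold change was 0.29 (SE 0.10, unadjusted p = 0.023, limma adjusted p = 0.310).

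*Adm*, which encodes the vasodilator peptide adrenomedullin (chr7:110627661-110629820, plus strand), was at 182, 140 and 171 in cKO and 133, 111 and 102 in WT, again without overlap. Its log2 fold change was 0.51 (SE 0.18, unadjusted p = 0.024, limma adjusted p = 0.312). When limma weighted libraries by their quality, 631 of 16246 genes (3.88%) passed the adjusted threshold, and *Ddit4* (adjusted p = 0.047) and *Bnip3* (0.046) were the 2 members among them. Over the alternatives tried, the adjusted p of *Ddit4* ran from 0.047 to 0.513 and that of *Bnip3* from 0.046 to 0.514.

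The other 6 targets did not share this. *Vegfa*, the endothelial growth factor, was at 1397, 1563 and 1395 in cKO and 1532, 1592 and 1307 in WT, with a 95% interval of the log2 difference from −0.25 to 0.21. *Car9*, the pH-regulating carbonic anhydrase whose induction is among the most HIF-dependent, was at 1124, 946 and 908 in cKO and 996, 1057 and 879 in WT, with an interval from −0.24 to 0.28. *Ndrg1*, a stress-responsive gene of epithelial differentiation, ranged from 886 to 1518 in cKO and from 898 to 1807 in WT.

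*P4ha1* and *P4ha2*, whose products hydroxylate collagen, were at 451 to 537 and 73.2 to 147 in cKO and at 411 to 712 and 67.2 to 126 in WT. *Ankrd37*, an ankyrin-repeat gene induced by hypoxia, was at 40.9 to 83.4 in cKO and 46.9 to 86.4 in WT. All 3 overlapped, with log2 fold changes of −0.16, 0.18 and −0.35 for *P4ha1*, *P4ha2* and *Ankrd37*. The values by library show *Ddit4*, *Bnip3l* and *Adm*, which did not overlap, beside *Vegfa*, *Car9* and *Ldha*, which did.

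**Figure D3:**
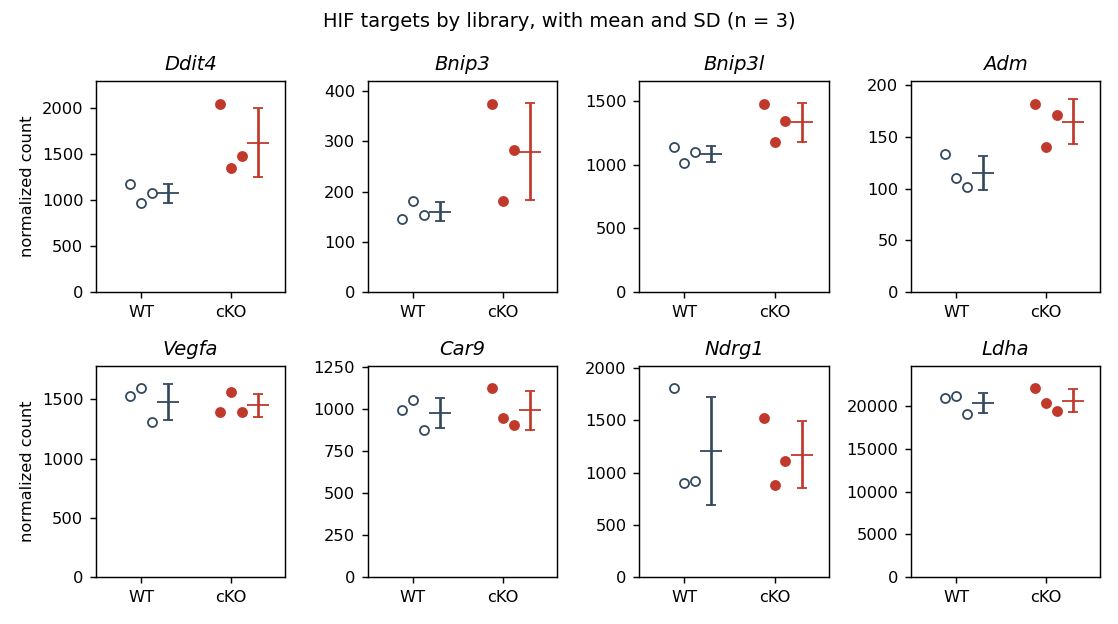
Each panel plots the normalized counts of 1 gene by library from 0 upward (open, WT; filled, cKO), with the mean and SD of 3 libraries beside the points. The upper panels (*Ddit4*, *Bnip3*, *Bnip3l*, *Adm*) have higher cKO means, and in the lower panels (*Vegfa*, *Car9*, *Ndrg1*, *Ldha*) the genotypes overlap.

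HIF binds a short core, ACGTG or GCGTG, and the promoters of these genes were searched for it on both strands (CACGT and CACGC are the reverse complements, and a CACGTG palindrome counts on each strand). RefSeq promoters of GRCm38.p6, from 250 bases before to 50 bases after the start, were matched for 31 of the 35 genes. Of these, 28 had at least 1 core and 3 had none (*Eno2*, *Gpi1* and *Tpi1*). A core was in 81.4% of the 43 promoters of the members and in 43.8% of all 32851. The genes were chosen for being HIF targets or glycolytic, so the excess describes the choice, and a match of letters is not a bound site.

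The stretches just upstream of the start are shown for the 3 higher HIF targets with a matched promoter, for *Slc16a3*, and for 3 genes that overlapped, so that they can be compared. Capitals mark the cores, and each line gives the position on GRCm38.p6 and reads 5′ to 3′ on the gene's strand.
Ddit4, chr10:59951771-59951970, minus strand: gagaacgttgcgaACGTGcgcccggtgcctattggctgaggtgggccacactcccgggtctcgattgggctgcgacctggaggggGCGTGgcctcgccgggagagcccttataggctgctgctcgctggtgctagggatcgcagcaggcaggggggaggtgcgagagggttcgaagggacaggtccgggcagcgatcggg
Bnip3, chr7:138909507-138909656, minus strand: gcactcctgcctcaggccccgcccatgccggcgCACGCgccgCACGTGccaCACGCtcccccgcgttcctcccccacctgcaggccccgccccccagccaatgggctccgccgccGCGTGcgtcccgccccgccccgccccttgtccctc
Adm, chr7:110627557-110627656, plus strand: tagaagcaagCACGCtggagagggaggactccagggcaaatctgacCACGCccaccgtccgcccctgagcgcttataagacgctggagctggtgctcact
Slc16a3, chr11:120948967-120949066, plus strand: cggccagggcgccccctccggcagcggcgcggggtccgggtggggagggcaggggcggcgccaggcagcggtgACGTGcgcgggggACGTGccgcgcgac
Car9, chr4:43506926-43507025, plus strand: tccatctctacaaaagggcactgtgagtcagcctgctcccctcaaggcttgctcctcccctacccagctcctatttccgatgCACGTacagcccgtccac
Slc2a1, chr4:119108645-119108744, plus strand: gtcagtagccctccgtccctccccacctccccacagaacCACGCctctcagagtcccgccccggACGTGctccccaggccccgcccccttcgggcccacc
Ldha, chr7:46845654-46845803, plus strand: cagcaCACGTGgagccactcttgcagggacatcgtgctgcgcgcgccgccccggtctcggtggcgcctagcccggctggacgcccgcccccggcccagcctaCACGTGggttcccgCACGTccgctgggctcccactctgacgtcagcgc
The stretch of *Bnip3* held 5 cores in 150 bases, with 1 palindrome, and that of *Ldha* also held 5, with 2 palindromes. *Ddit4*, *Adm*, *Slc16a3* and *Slc2a1* had 2 cores each and *Car9* had 1. Over the whole 300 bases, the printed promoter of *Ldha* had 7 cores and that of *Bnip3* still 5. *Ldha* had a further matched promoter with 2 cores, and the one with more cores was printed.

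Some of these values followed the order of some neutrophil and stromal markers among the cKO libraries. *S100a9*, a neutrophil calprotectin subunit, was at 2680, 27.6 and 348 in cKO replicates 1, 2 and 3 and at 15.8, 10.8 and 15.0 in WT. *Slc16a3*, *Slc2a3*, *Pfkfb3* and *Bnip3* had the same order among the cKO libraries, but *Slc2a1* and *Pfkfb4* did not. The order was not particular to those genes: *Hk2*, *Hif1a*, *Ndrg1*, *Pgk1* and *Ddit4* had it too. Its share over all genes was not counted, and the markers *Ly6g*, *Pdgfra* and *Vwf* did not have it. The fibroblast marker *Col1a1* had that order too, at 7907, 3461 and 4009 in cKO and 2452, 1862 and 2254 in WT. Replicate 1 of cKO was highest for 7 of 8 fibroblast and 8 of 10 endothelial markers, and for 2 of 11 macrophage and monocyte and 4 of 8 T cell markers. Of 8 neutrophil markers tested, 7 were above 0 on the log2 scale and 7 were highest in cKO replicate 1. The median log2 fold change of the list was 3.53, and 3 were higher (*S100a9*, *Mmp8* and *Cxcr2*) and 1 lower (*Ly6g*) at an unadjusted p under 0.05. The WT means of *Mmp8* (1.29), *Cxcr2* (0.90) and *Retnlg* (9.51) were under 10. These genes reached the filter, a mean of 10 over the 6 libraries, only through cKO. Their p, and the median they enter, therefore give no support for a difference. Without cKO replicate 1, *Mmp8* and *Cxcr2* fell below the filter.

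The 9 markers summed to 10112, 3037 and 3435 in cKO and to 3006 to 3285 in WT. Most of the sum outside cKO replicate 1 was *Ly6g*, of a family of similar genes, at 2200 to 3136 in all libraries. The defining marker *Cxcr2* was at 181, 4.42 and 20.6 in cKO, at 0 in WT replicates 1 and 3 and at 2.70 in WT replicate 2. *Hk3*, the hexokinase of myeloid cells, which like the markers named was picked after its values had been seen, was at 209, 88.4 and 122 in cKO and 111, 32.4 and 75.9 in WT. The part of neutrophils, fibroblasts and endothelium in the values of *Slc16a3*, *Slc2a3*, *Pfkfb3* and *Bnip3* was not tested.

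**Figure D4:**
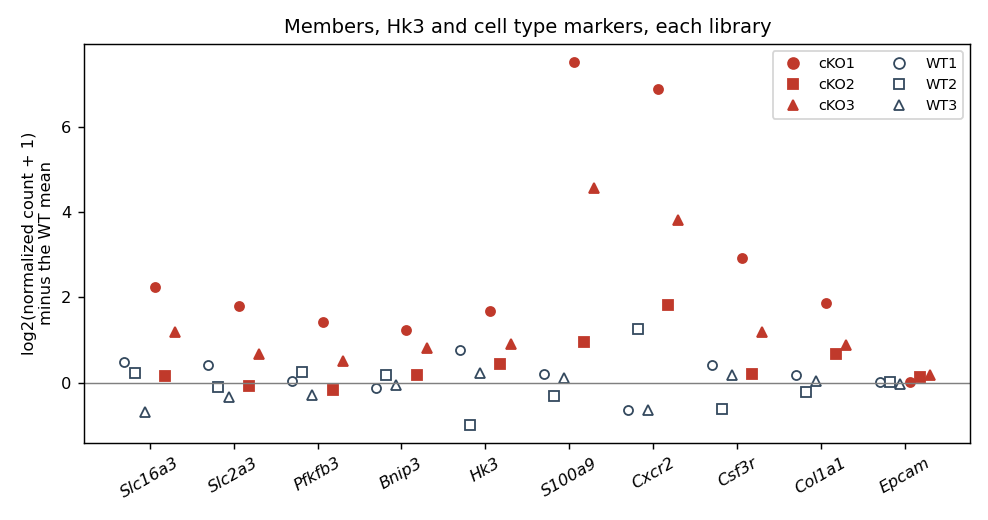
The vertical axis gives log2(normalized count + 1) minus the WT mean for 4 members, *Hk3* and 5 cell type markers, with 1 symbol per library (filled, cKO; open, WT). The cKO libraries fall in the order replicate 1, replicate 3, replicate 2 for *Slc16a3*, *Slc2a3*, *Pfkfb3*, *Bnip3* and the neutrophil markers *S100a9*, *Cxcr2* and *Csf3r*. Members not drawn, such as *Hk2* and *Hif1a*, had this order too. *Epcam*, 1 of 13 epithelial markers, lies near 0 while 10 of the 13 had a log2 fold change below 0.

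Related genes outside the 35 were read from 4 lists. Of 37 other glycolysis and gluconeogenesis genes tested, 0 were higher and 3 lower (*G6pc3*, *Mpc1* and *Mpc2*) at an unadjusted p under 0.05, which at 8.11% is below the 14.0% of all genes, and the median log2 fold change was −0.0033. *G6pc3*, a ubiquitous glucose phosphatase, was at 496, 600 and 509 in cKO and 753, 730 and 740 in WT, all cKO libraries being lower (log2 fold change −0.47, SE 0.10, limma adjusted p = 0.192). *Mpc1*, which with *Mpc2* forms the mitochondrial pyruvate carrier, was also lower without overlap, at 227 to 255 against 275 to 323 (log2 fold change −0.30, limma adjusted p = 0.342), and *Slc2a9*, a urate transporter, was higher without overlap (0.33, limma adjusted p = 0.448).

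Of 15 other oxygen sensing genes tested, 0 passed an unadjusted p under 0.05. *Hif1an*, the asparaginyl hydroxylase that blocks HIF's coactivators, was the tested one whose libraries did not overlap, at 1645 to 1787 in cKO and 1498 to 1571 in WT (log2 fold change 0.17, limma adjusted p = 0.360).

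Of 55 other HIF targets, 9 were higher and 2 lower (*Muc3* and *Ccng2*) at an unadjusted p under 0.05 (20.0% against 14.0% of all genes). The genotypes of 11 did not overlap, all with cKO higher (20.0% against 10.5% of all genes higher and 21.4% in either direction). The median log2 fold change was 0.20. Replicate 1 of cKO was highest for 30 of the 55 (54.5% against 24.4% of all genes). Without it, 6 of 54 tested were higher (11.1% against 5.27%) and 1 lower, with a median of 0.11. Without cKO replicate 2, 14 of 54 were higher (25.9% against 8.94%) and 4 lower, with a median of 0.26. *Slc40a1*, the iron exporter ferroportin, was at 2820, 2537 and 3135 in cKO and 1610, 1741 and 2129 in WT (log2 fold change 0.64, SE 0.13, limma adjusted p = 0.169). *Plod2* and *Plod1*, lysyl hydroxylases of collagen, and *Lox*, which cross-links collagen, were higher by 0.92, 0.43 and 2.09 on the log2 scale, with limma adjusted p of 0.215, 0.227 and 0.284. *Lox* was at 822, 156 and 258 in cKO and 54.9 to 89.9 in WT. *Adora2b*, an adenosine receptor, was at 24.0, 25.4 and 11.3 in cKO and 3.60 to 3.99 in WT (2.05, limma adjusted p = 0.192). Its WT values were all under the filter, which its mean over the libraries reached only through cKO. The p of *Adora2b* therefore gives no support for a difference, although the gene is counted among the 9 higher and the 11 without overlap.

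Fibroblast markers also leaned upward: all 8 had log2 fold changes above 0, 4 (*Col1a1*, *Col1a2*, *Col3a1* and *Thy1*) at an unadjusted p under 0.05. The genotypes overlapped for *Pdgfra*, *Dpt*, *Dcn* and *Lum*. The 8 summed to 22100 to 43906 in cKO, highest in replicate 1, and to 11160 to 19071 in WT. The part of fibroblasts in the *Plod1*, *Plod2* and *Lox* values was not tested.

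The pyruvate dehydrogenase and citrate cycle genes, which oxidise the pyruvate that glycolysis makes, leaned the other way. Of 26 genes, 0 were higher and 5 lower (*Ogdh*, *Suclg2*, *Cs*, *Idh3a* and *Idh2*) at an unadjusted p under 0.05 (19.2% against 14.0% of all genes, and 7.08% of all genes lower). Of the 26, 22 had a log2 fold change below 0, 9 were below WT in every cKO library (34.6% without overlap against 21.4% of all genes), and the median was −0.14. *Ogdh*, a subunit of the oxoglutarate dehydrogenase complex, was at 5545, 6624 and 6115 in cKO and 6926, 7642 and 7217 in WT (log2 fold change −0.26, SE 0.09, limma adjusted p = 0.310). *Suclg2*, *Cs*, *Dlst* and *Mdh2*, further enzymes of the cycle, had log2 fold changes of −0.30, −0.23, −0.16 and −0.16, with limma adjusted p of 0.316 to 0.367.

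Without cKO replicate 1, 0 of the 26 citrate cycle genes passed an unadjusted p under 0.05 (background 5.27% higher, 6.35% lower), and the median was −0.10. Still 10 of them lay wholly below WT and 1 wholly above (42.3% without overlap against 30.8% of all genes). Without cKO replicate 2, 8 were lower and 1 higher (background 8.77% lower, 8.94% higher) with a median of −0.18. There 18 lay wholly below WT and 1 wholly above (73.1% without overlap against 37.6%). The colonocyte markers, which mark the absorptive cells rich in mitochondria, summed to 35794, 75162 and 43355 in cKO and to 61849 to 74590 in WT. All 8 had a log2 fold change below 0, but 0 had an unadjusted limma p under 0.05 and the genotypes overlapped for each. Without cKO replicate 1, *Saa1* (0.24) and *Slc37a2* (0.34) were above 0. The part of colonocytes in the citrate cycle values was not tested.

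**Figure D5:**
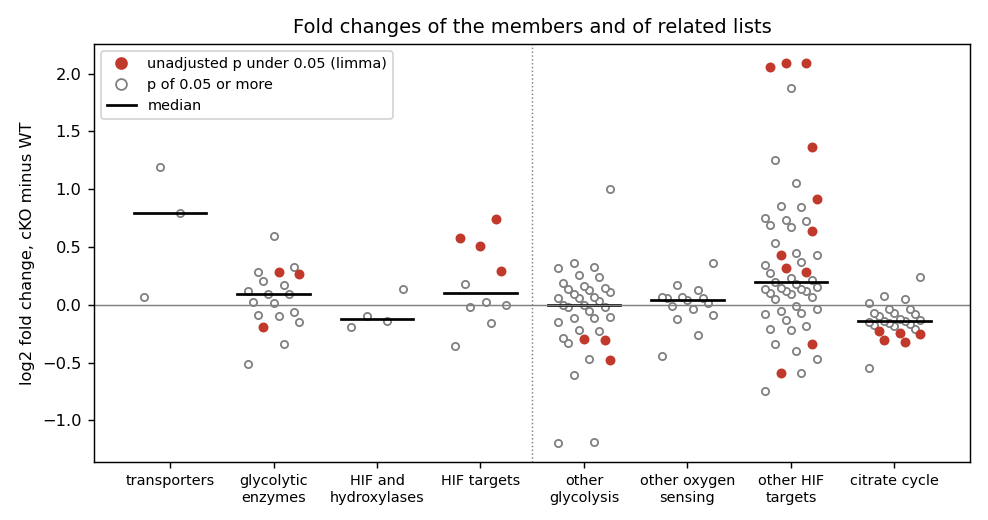
Each point is 1 gene and the vertical axis gives the log2 fold change of cKO over WT, with the members by role left of the dotted line and the related lists right of it. Black bars are medians and filled red points have an unadjusted limma p under 0.05, of which 5 are in the citrate cycle list, all below 0.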

How the data were processed

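Colonic RNA of 3 cKO and 3 WT mice was analysed from 1 table. The signal deposited by the authors is the normalized count, or reads of a gene over a size factor of the library, and the length of each gene is given. The table's genotype means, fold changes and p-values of the authors were not used. The submitters' notes name HISAT2 2.0.5, featureCounts 1.5.0-p3 and the human build hg18, without their roles, but identifiers and coordinates are mouse and identical to GENCODE M21 on GRCm38 for 97.2% of genes. The use of strand is not stated.

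Values were tested as log2(value + 1), so that changes of low genes are understated, in the 16246 genes whose mean over all 6 libraries reached 10, with limma 3.58.1 (trend and robust settings, R 4.3.3), Benjamini-Hochberg adjustment and a threshold of 0.05. The script was tested on simulated data. Groups came from the sample titles. The labels do not say more than that libraries are separate samples, so p-values measure the spread between these samples. Every value was a whole multiple of its library's smallest value (tolerance 0.01). Precision is limited by 3 libraries per genotype.

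Ratios of paralogs, taken within a library as log2((a + 1)/(b + 1)), were compared by exact permutation over libraries, two-sided. Near-identical copies were found with BLAST 2.17.0 (95% identity over 50% of a transcript). Figures were drawn with matplotlib 3.10.9. Values in every library are given for members with an unadjusted p under 0.05 or without overlap and for a fixed set of main genes, and in each related list up to 5 genes with the smallest p and no overlap are named. The members and lists were chosen with earlier results of these data known, and the related lists come from general knowledge of the pathways. Alternatives changed the pseudocount, the filter, the scaling, the library weights, the replicate block and the libraries used.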

Additional observations from a re-analysis of the deposited data

How the results depend on the processing

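Leaving out 1 library at a time reversed the sign of small differences. The log2 fold change ranged from −0.17 to 0.26 for *Slc2a1*, −0.12 to 0.69 for *Ldhb*, −0.12 to 0.24 for *Hk2*, −0.12 to 0.0052 for *Pfkm*, −0.031 to 0.059 for *Ldha*, −0.31 to 0.052 for *Hif1a*, −0.37 to 0.030 for *P4ha1*, −0.080 to 0.42 for *P4ha2*, −0.11 to 0.035 for *Vegfa*, −0.072 to 0.082 for *Car9* and −0.20 to 0.33 for *Ndrg1*. The log2 ratio difference ranged from −0.66 to 0.085 for *Ldha*/*Ldhb*, −0.031 to 0.16 for *Pfkm*/*Pfkl* and −0.016 to 0.22 for *Eno2*/*Eno1*. With array weights the fold changes of *Ldha* (−0.027), *P4ha2* (−0.15), *Car9* (−0.047) and *Ndrg1* (−0.0081) turned negative, as did *Ndrg1* with quantile normalization (−9.8e-05). Those were the 11 members with a reversal, in 25 of 501 values. The other 25 rows kept their sign under every alternative, among them *Ddit4*, *Bnip3*, *Bnip3l*, *Adm*, *Pfkp*, *Pkm*, *Tpi1*, *Slc16a3* and, below 0, *Hk1*. The 15 other named genes, *Nedd4l* included, had 0 reversals in 207 values. *Adora2b*, low in every library, did not pass the filter under some alternatives and has no value there.

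Over all genes, 7 were called higher and 23 lower with no filter on low values, and 262 and 369 with array weights, where 2 members were called and 3 were lower at an unadjusted p under 0.05. Leaving out single libraries gave 0 to 70 higher and 0 to 52 lower genes (70 and 52 without cKO replicate 2, 2 and 22 without cKO replicate 1), 1 to 11 members higher and 0 to 2 lower at an unadjusted p under 0.05. Fewer samples enter such fits. At that p the background was 5.27% higher and 6.35% lower without cKO replicate 1, and 8.94% and 8.77% without cKO replicate 2. It was not counted for the other libraries. Between 4 and 12 members lay wholly above WT and 1 to 5 wholly below when cKO replicate 1 or 2 was left out, alternatives chosen after seeing the data. That was 25.0% of the rows against 30.8% of all genes without cKO replicate 1, and 36.1% against 37.6% without cKO replicate 2. With the replicate block 0 genes were called and 0 members were lower at an unadjusted p under 0.05. Same-numbered libraries did not deviate together (r = −0.029, −0.090 and −0.056). With 3 libraries per genotype this cannot exclude that the mice were paired, and the labels do not say. Count tests with edgeR and DESeq2 were planned and not run: the values are whole multiples of a step in each library, but the step of WT replicate 3 (0.999) lay too near 1 for whole reads to be accepted as recovered by the criterion used.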

Other observations

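Further marker lists were read in the same libraries, with counts at an unadjusted p under 0.05. Of 10 cycling genes, 1 was higher (*Ccnb1*) and 5 lower (*Pcna*, *Mcm5*, *Mcm2*, *Tyms* and *Rrm2*) in cKO, and the list summed to 16838 to 18274 in cKO and 20196 to 22028 in WT. Of 11 macrophage and monocyte genes, all had log2 fold changes above 0 and 4 were higher (*Ly6c2*, *Fcgr1*, *Ccr2* and *Cd68*), with sums of 4993 to 6687 and 2951 to 6134. Of 10 endothelial genes 1 was higher (*Vwf*) and 8 were highest in cKO replicate 1, with sums of 3239 to 5535 and 2365 to 3324. Goblet cell markers had 1 of 9 lower (*Atoh1*) and sums of 100261 to 461175 and 159329 to 319824. The 13 general epithelial, 8 colonocyte, 8 T cell, 8 B and plasma cell and 8 smooth muscle markers had 0 in either direction. So did the tested enteric neuron and glia (7), erythrocyte (3) and skeletal muscle (2) markers.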
